A study of Mus musculus with 9 samples.

Results

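The transcripts of 9 genes that act in the cAMP pathway of meiotic arrest were described in XX, XO and XY mouse oocytes. The genes were taken by name from the 28052 genes of the UMI matrix, and all 9 were found: Gpr3, Gnas, Adcy3, Adcy9, Pde3a, Prkaca, Prkacb, Prkar1a and Prkar2a. The oocytes came from C57BL/6 females at 18 days post partum, by the sample labels. XY females carried the Tirano Y chromosome on the B6 background and were born, together with XX littermates, to B6.YTIR males and B6 females. XO females were born to B6 females and males that carried the Patchy fur (Paf) mutation on the X, a line moved from C3H/HeSnJ to B6 by backcross, so that the cross and the genotype cannot be told apart for XO oocytes. XO and XY oocytes have the single X of their B6 mother, while XX oocytes have an X of each parent. Each sample was a pool of 30 oocytes in the growth phase, 10 of 50–55 μm and 20 of 55–60 μm in diameter, and there were 3 pools per genotype, called XX1 to XX3, XO1 to XO3 and XY1 to XY3. The replicates are labelled biological, but which females gave which pool is not stated, so p-values measure the spread between pools.

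A mouse oocyte is held in prophase of the first meiotic division. Once it is fully grown, this arrest depends in the follicle on cAMP made by the oocyte itself. The paper states that oocytes gain competence for that division at the end of growth, later than the stage sampled here. Whether the pathway holds the arrest at the sampled stage was not tested. The receptor GPR3 in the oocyte membrane activates the stimulatory G protein, whose alpha subunit turns on adenylyl cyclases that make cAMP. The phosphodiesterase PDE3A breaks cAMP down and is itself restrained by cGMP that enters from the follicle cells. cAMP binds the regulatory subunits of protein kinase A (PKA) and frees the catalytic subunits, which keep the cyclin B kinase inactive.

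RNA was measured by Smart-seq3, in which a unique molecular identifier (UMI) marks the 5′ end of each transcript, so that 1 UMI stands for 1 captured molecule whatever the length of the gene. Levels are given as normalized CPM, UMIs per 1000000 gene UMIs divided by a factor from the ERCC spike-in RNAs. The pools had between 2130145 and 3157338 gene UMIs. All 12 oocyte markers on the list were detected in every pool. The 10 granulosa markers with a row summed to between 108 and 305 UMIs per pool, of which Nr5a2, Cyp19a1 and Kitl had up to 114, 147 and 63, Fshr and Inhba at most 8, and Amhr2, Fst, Inha, Npr2 and Gja1 at most 2 in any pool. The 6 theca and stroma markers with a row summed to between 6 and 30 UMIs per pool. The 2 blood and endothelium markers with a row, Pecam1 and Cdh5, summed to between 31 UMIs in XO1 and 234 in XO3. Pecam1 had up to 233 of these in a pool and Cdh5 at most 11. The part of other cells in the levels below was not tested. XO1 and XY1 stood apart, since their oocyte markers summed to 9959 and 14847 normalized CPM, while those of the other 7 pools summed to between 24001 and 57732. Fewer molecules per oocyte and fewer oocytes that contain them cannot be told apart in pools.

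The 150 bases before an annotated start are shown for Gpr3, Gnas and Adcy9. Gpr3, the receptor, gave almost no UMIs, the level of Gnas ranged widely between pools, and Adcy9 was the member that passed the test. The sequences are those of RefSeq on GRCm38, read 5′ to 3′ on the strand of the gene. For Gnas 1 of its 4 annotated starts was taken, and whether the alpha subunit or another transcript begins there was not tested. The window before its start furthest downstream, chr2:174329856-174330005, is not shown and holds none of the motifs marked in capitals. Capitals mark TGACG, the core of the cAMP response element, CCAAT and TATAAA, each on either strand.
Gpr3, chr4:133212537-133212686, minus strand: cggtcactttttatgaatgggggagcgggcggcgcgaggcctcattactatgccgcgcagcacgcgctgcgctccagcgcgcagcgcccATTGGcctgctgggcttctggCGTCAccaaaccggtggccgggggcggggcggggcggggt
Gnas, chr2:174327599-174327748, plus strand: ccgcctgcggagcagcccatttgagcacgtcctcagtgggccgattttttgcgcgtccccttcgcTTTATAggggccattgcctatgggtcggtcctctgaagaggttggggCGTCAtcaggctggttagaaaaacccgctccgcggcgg
Adcy9, chr16:4420499-4420648, minus strand: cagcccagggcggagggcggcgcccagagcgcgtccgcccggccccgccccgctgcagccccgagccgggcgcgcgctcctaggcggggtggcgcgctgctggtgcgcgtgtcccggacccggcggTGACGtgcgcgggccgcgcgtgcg

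Each of the windows shown holds 1 TGACG, which lies 40 bases before the start in Gpr3, 38 in Gnas and 24 in Adcy9. Of the 4 Gnas windows 2 hold it, and these overlap and share the same site. Of the 20 windows of the 8 members with an entry 8 hold it, with that Gnas site counted in both windows. CCAAT and TATAAA are each in 4 of the 20, and 3 of those with TATAAA are Gnas windows. TGACG contains CG, and the windows shown are 71.3%, 61.3% and 84.7% G or C, beside a median of 54.0% over all windows. Windows of like G and C content were not compared. Of 32475 distinct windows of this length before annotated starts, 13.4% hold TGACG, 24.4% hold CCAAT and 7.55% hold TATAAA. The full palindrome TGACGTCA, which contains TGACG on both strands, occurs in 1.37% of windows. Among the windows of the members it was found before 1 start of Prkar1a, the regulatory subunit RIα. These matches describe the letters and do not show that a factor binds there.

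Gpr3, the constitutively active receptor (chr4:133209340-133212536, GRCm38), was at the limit of detection. It had 1, 0 and 1 UMIs in the XX pools, 1 UMI in each XO pool, and 0, 0 and 1 UMIs in the XY pools. These 6 UMIs in all placed it 19318th among the genes by mean level, at 0.285 normalized CPM. The exact Poisson intervals of the sums per genotype overlapped, with 2 UMIs (0.242–7.22) over the XX pools, 3 (0.619–8.77) over the XO pools and 1 (0.0253–5.57) over the XY pools. No difference was detectable at this depth, and no fold is given. Gpr12, a related receptor that also raises cAMP, had 1 UMI in all 9 pools, and Gpr6 was not analysed here. Gpr161, another receptor coupled to cAMP, was the highest of its class and had 16 UMIs. The counting kept reads of 5′ exons, and transcripts that begin elsewhere in these genes were not tested. Cd164l2, with 334 UMIs, overlaps the start of Gpr3 on the opposite strand. The part of this overlap in the low count of Gpr3 was not tested.

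Gnas, which encodes the alpha subunit of the stimulatory G protein and several imprinted transcripts from other first exons (chr2:174284320-174346744), was the most abundant member. The matrix gives 1 value for all its transcripts. Gm20721 overlaps Gnas on the opposite strand with 3730 UMIs. Reads were aligned as stranded, but whether some were given to the wrong strand was not tested. The 3 XX pools had 450, 317 and 534 UMIs, or 160, 111 and 163 normalized CPM. XO1 had 66 UMIs and 34.2 normalized CPM, whereas XO2 and XO3 had 212 and 299.8 normalized CPM. XY1 likewise had 77.2, whereas XY2 and XY3 had 131 and 199 normalized CPM. The genotypes therefore overlapped fully, and the lowest XO and XY values belonged to the pools with the lowest oocyte markers. The mean was 145 ± 29.2 (SD, n = 3) in XX pools, 182 ± 135 in XO pools and 136 ± 61.0 in XY pools.

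Gnas did not pass the edgeR test in any comparison. The log2 difference was −0.33 ± 0.65 (SE) between XX and XO, with a 95% interval from −1.79 to 1.13. It was 0.09 ± 0.65 between XX and XY, from −1.36 to 1.54, and −0.42 ± 0.65 between XY and XO, from −1.88 to 1.04. Leaving out XO1 and XY1 together, chosen after the values were seen, gave −0.79 between XX and XO at an unadjusted p of 0.0194 in the edgeR model, which then called 35.9% of all genes lower in XX. With 2 surrogate variables, estimates by sva of hidden differences between pools, in the edgeR model the same difference was 0.92 at an unadjusted p of 0.00192, which is the opposite direction.

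**Figure D1:**
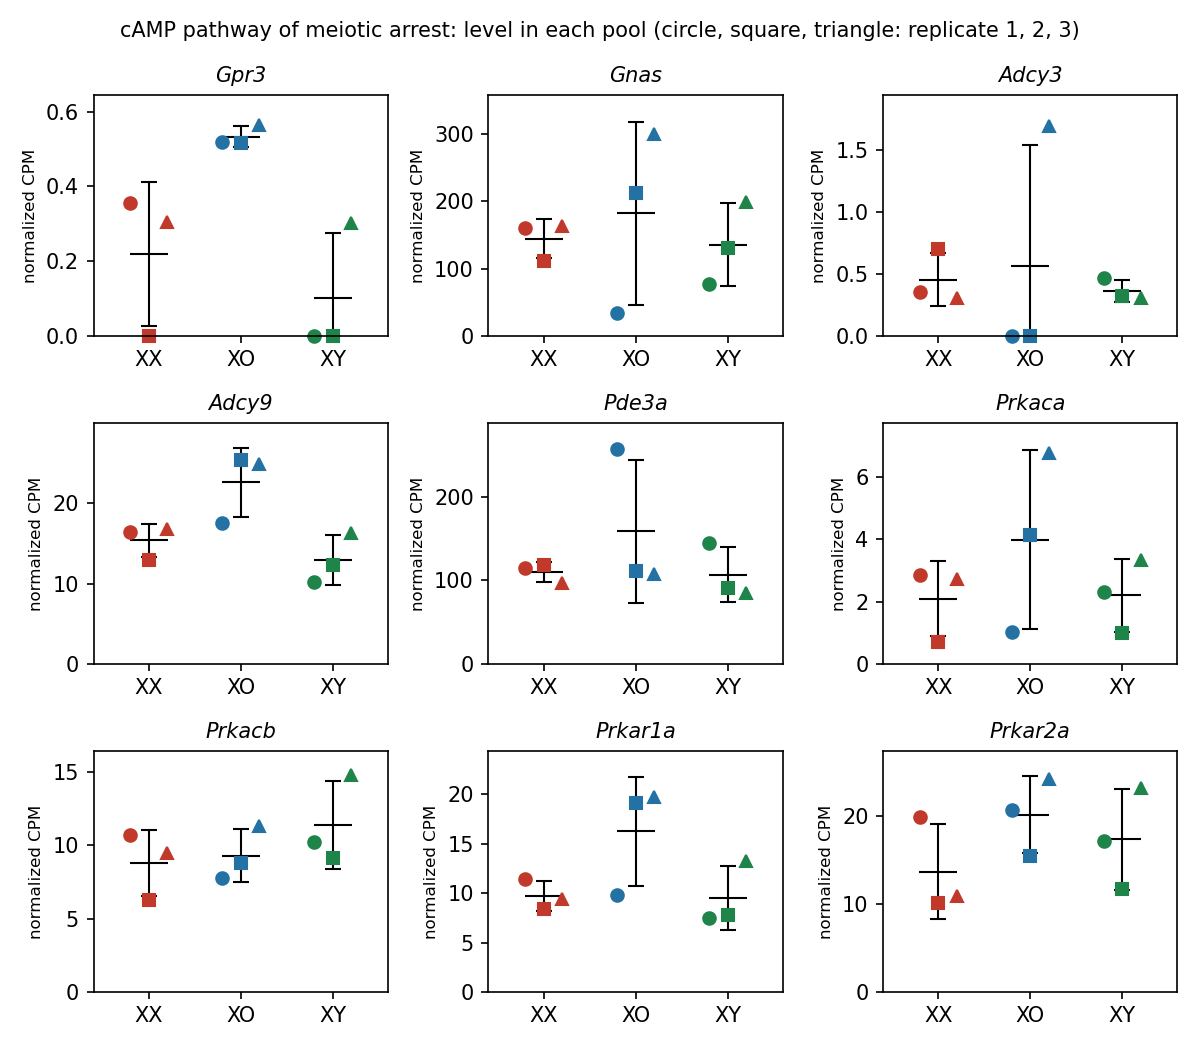
Level of each of the 9 members in normalized CPM (linear axis from 0, own scale per panel) in the 3 pools of XX (red), XO (blue) and XY (green) oocytes, with the mean and SD as black bars. XO1 (blue circle) is the lowest pool in Gnas, at 34.2, and the highest in Pde3a, at 258. All Adcy9 values of XO lie above those of XY, and the share of all genes that separate in this way was not counted.

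Adcy3 and Adcy9, the 2 adenylyl cyclases among the members, differed widely in level. Adcy3 (chr12:4133103-4213525) had between 0 and 3 UMIs per pool and 10 UMIs in all, with sums of 4, 3 and 3 in XX, XO and XY oocytes. Adcy9 (chr16:4287529-4420498), a cyclase that is little affected by forskolin, had between 22 and 55 UMIs per pool and a mean of 17.0 normalized CPM. Cenpo overlaps Adcy3 on the opposite strand and has 4412 UMIs. A processed pseudogene on the same strand, Gm6142, lies inside Adcy9 and has its own row with 85 UMIs.

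Adcy9 was 16.4, 13.0 and 16.8 normalized CPM in XX, 17.6, 25.3 and 24.8 in XO, and 10.2, 12.4 and 16.3 in XY pools. All XO pools were above all XY and all XX pools, while XX and XY pools overlapped. The share of all tested genes that separate in this way was not counted. Over all genes the median difference in this fit also put XX and XY below XO. Adcy9 was lower in XY than in XO oocytes, by a log2 difference of −0.79 ± 0.30 (SE) at an unadjusted p of 0.0269, the threshold used throughout being 0.05. The Benjamini-Hochberg adjusted p of edgeR was 0.492. This fit had no replicate block. With the replicate number as a block the difference also passed, beside 14.0% of all genes called lower in XY. The differences from XX did not pass, with −0.55 ± 0.30 for XX minus XO (95% interval from −1.23 to 0.12) and 0.24 ± 0.30 for XX minus XY (from −0.44 to 0.91).

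The scaling bears directly on this call. Over the 11411 tested genes the median log2 difference was −0.47 for XX minus XO, −0.20 for XX minus XY and −0.30 for XY minus XO, and relative to the last of these Adcy9 was lower by a log2 difference of −0.49. With TMM factors over the genes the medians were −0.03, −0.03 and −0.02, and the Adcy9 difference between XY and XO was −0.49 at an unadjusted p of 0.104 in edgeR. In DESeq2, with its own size factors, it was −0.61 at an unadjusted p of 0.0599. The direction was the same when any single pool was left out, at −0.88 to −0.65, but the call was lost without XX1, XX3, XO2, XO3, XY1 or XY2. It was also lost with spike-in totals as library sizes (−0.57), with no filter on low counts (−0.79), on batch-regressed values (−0.19) and without XO1 and XY1 together (−0.69).

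Adcy3 and Adcy9 held a small share of all cyclase UMIs. Of the 8 adenylyl cyclases with a row, Adcy8, a cyclase activated by calcium and calmodulin, had 7084 UMIs and made up between 81.2% and 88.7% of cyclase UMIs in every pool. Adcy1, also activated by calcium and calmodulin, had 741 UMIs, though fewer than Adcy9 in XX1, XO1 and XY1. Adcy9 had 379 UMIs, or 6.40% ± 1.06 (SD, n = 3) of cyclase UMIs in XX pools, 4.88% ± 2.95 in XO pools and 4.45% ± 0.840 in XY pools. Adcy3 had the fewest UMIs over all pools, with a share of at most 0.397% (95% Wilson interval 0.109–1.44, in XX2), and in XO1, at 0 of 412 UMIs, the interval reached 0.924%. These intervals cover counting error only. Adcy9 and Adcy8 thus differed in level by more than the spread between pools, since the highest Adcy9 value was 25.3 and the lowest Adcy8 value 143 normalized CPM.

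**Figure D2:**
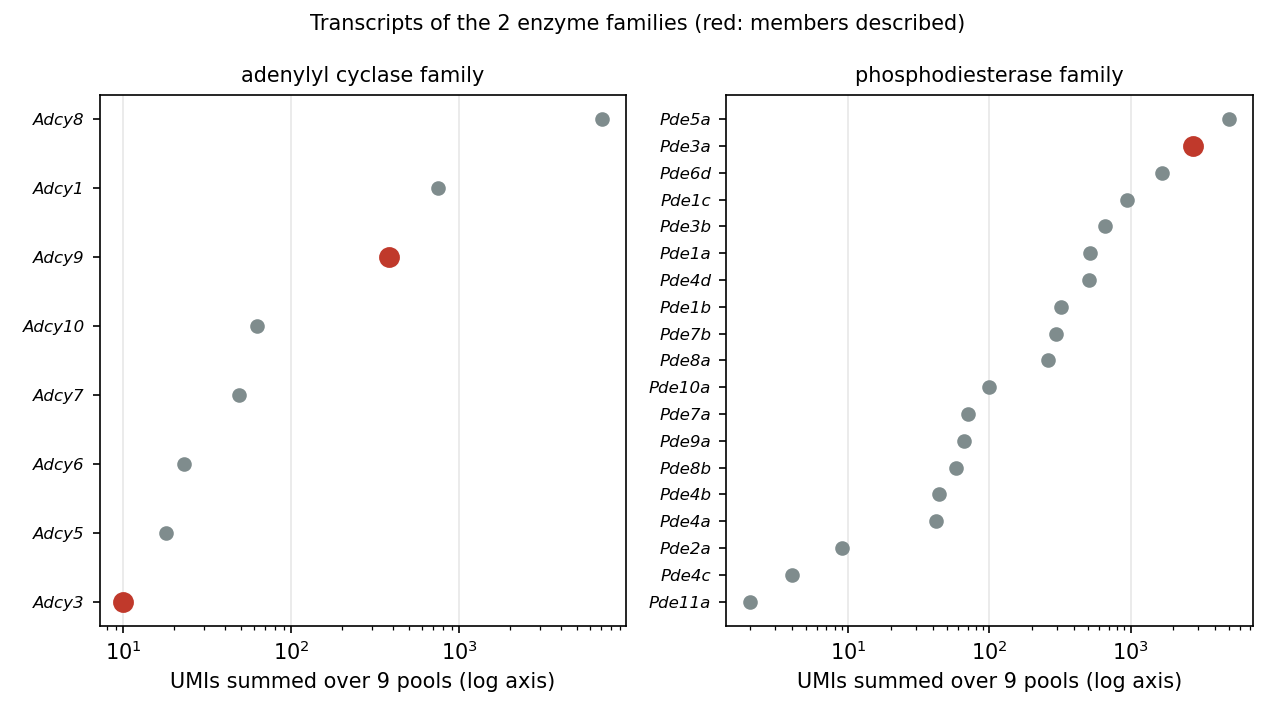
UMIs summed over the 9 pools (log axis) for each of the 8 adenylyl cyclases and 19 genes named phosphodiesterase, with the members in red. By these sums Adcy9 ranks below Adcy8 and Adcy1, and Pde3a below Pde5a, although Adcy9 exceeded Adcy1 in 3 pools and Pde3a exceeded Pde5a in XO1.

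Pde3a, the phosphodiesterase that removes cAMP in the oocyte (chr6:141249269-141507448), was the second most abundant member. The XX pools had 115, 119 and 96.9 normalized CPM, a narrow range. XO1 had 258, or 498 UMIs, against 112 in XO2 and 107 in XO3. XY1 had 145 against 90.8 in XY2 and 84.8 in XY3. The pools that were lowest in Gnas were thus the highest in Pde3a.

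Pde3a did not pass the edgeR test, at −0.53 ± 0.40 (SE) for XX minus XO (95% interval from −1.42 to 0.37), 0.05 ± 0.40 for XX minus XY (from −0.84 to 0.94) and −0.58 ± 0.40 for XY minus XO (from −1.47 to 0.32). Both differences from XO rested on XO1 and became 0.06 and 0.03 without it. With 2 surrogate variables, Pde3a was lower in XY than in XO oocytes by a log2 difference of −0.59 at an unadjusted p of 0.00128 in edgeR.

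The ratio of Gnas to Pde3a UMIs within a pool does not depend on the scaling. It was 1.39, 0.935 and 1.68 in XX, 0.133, 1.90 and 2.79 in XO, and 0.534, 1.44 and 2.35 in XY pools. Gnas UMIs exceeded Pde3a UMIs in 6 of 9 pools, and XX2, XO1 and XY1 were the exceptions. The range within XO oocytes alone covered all other pools. Spike-ins made up 0.654% of UMIs in XO1 and 0.862% in XY1, the highest share, beside 0.683% in XY2 and 0.617% in XX2. The part of the spike-in share, the depth or the oocyte marker level of a pool in these ratios was not tested.

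**Figure D3:**
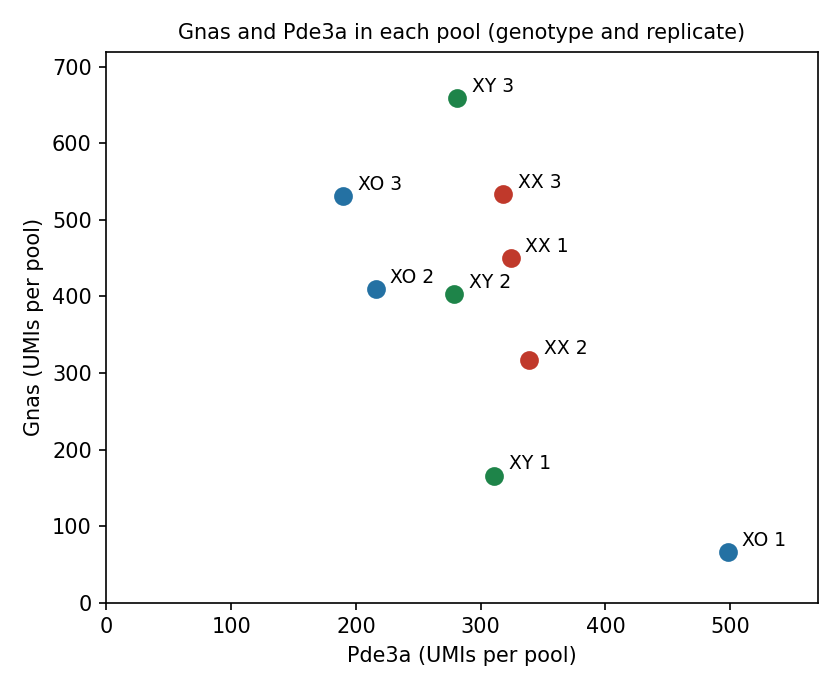
Gnas against Pde3a in UMIs per pool (linear axes from 0), with each point labelled by genotype and replicate. XO1 has 66 Gnas and 498 Pde3a UMIs, and XO3 has 531 and 190.

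Pde3a was the most abundant of 16 phosphodiesterases that can act on cAMP. Pde5a, which is specific for cGMP, had more UMIs in 8 of 9 pools, at 4950 against 2756 for Pde3a in all, but in XO1 it had 182 against 498. Pde6d, which had 1659 UMIs, encodes a subunit that binds prenylated proteins and does not break down cAMP. Over all 19 genes named phosphodiesterase, Pde3a had a share of 24.4% ± 0.552 (SD, n = 3) in XX pools, 21.8% ± 14.9 in XO pools and 18.5% ± 4.78 in XY pools. When Pde5a, Pde6d and Pde9a were set aside, a choice made after the values were seen, the share was more even, at 44.5%, 44.0% and 47.8% in XX, 46.9%, 46.8% and 39.1% in XO, and 36.0%, 37.2% and 35.4% in XY pools. The XY pools were below all others in this share, and it is given as a description without a test. Pde3b, the paralog of Pde3a, had 654 UMIs, and its highest pool was also XO1, at 65.2 normalized CPM.

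The 4 PKA genes were expressed at lower levels. Among the catalytic subunits, Prkacb, which encodes Cβ (chr3:146729574-146812990), had 230 UMIs and Prkaca, which encodes Cα (chr8:83972993-83996443), had 60. Prkacb exceeded Prkaca in each of the 9 pools. It made up 82.1% ± 6.84 (SD, n = 3) of their sum in XX pools, 72.9% ± 13.6 in XO pools and 84.5% ± 5.05 in XY pools, and the genotypes overlapped. Prkacb was 10.7, 6.30 and 9.44 normalized CPM in XX, 7.77, 8.79 and 11.3 in XO, and 10.2, 9.12 and 14.8 in XY pools. The groups overlapped, and no comparison passed the edgeR test, the largest difference being −0.37 ± 0.35 (SE) for XX minus XY (95% interval from −1.14 to 0.40). Prkaca had between 2 and 12 UMIs per pool and was not tested.

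Among the regulatory subunits, Prkar2a, which encodes RIIα (chr9:108689314-108750436), had 384 UMIs and Prkar1a, which encodes RIα (chr11:109649405-109669656), had 262. Prkar2a was 19.9, 10.2 and 11.0 normalized CPM in XX, 20.7, 15.5 and 24.3 in XO, and 17.2, 11.7 and 23.2 in XY pools. These values overlapped between all genotypes and no comparison passed, the differences being −0.56 ± 0.39 (SE), −0.35 ± 0.38 and −0.21 ± 0.38 for XX minus XO, XX minus XY and XY minus XO.

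Prkar1a was 11.4, 8.40 and 9.44 normalized CPM in XX, 9.84, 19.1 and 19.8 in XO, and 7.44, 7.81 and 13.3 in XY pools. XO2 and XO3 were above every XX and XY pool, and XO1 was among them. The difference was −0.73 ± 0.38 (SE) for XX minus XO at an unadjusted p of 0.0846 and −0.76 ± 0.38 for XY minus XO at an unadjusted p of 0.0761 in edgeR. Without XO1 both passed, with log2 differences of −0.94 and −0.93 at unadjusted p of 0.0246 and 0.0267, in a fit that called 32.4% and 24.5% of all genes lower. Without XO1 and XY1 together the second did not pass (−0.77, unadjusted p 0.0715 in edgeR), and XX minus XO turned to 0.055 with spike-in totals as library sizes and to 0.19 on batch-regressed values. XX and XY differed by 0.03 ± 0.38, with a 95% interval from −0.83 to 0.88.

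Regulatory subunits made up most UMIs of the 4 PKA members in every pool, at 68.4% ± 5.16 (SD, n = 3) in XX pools, 73.8% ± 3.46 in XO pools and 66.3% ± 0.466 in XY pools. XO pools ranged from 70.9% to 77.6% and lay above all XY pools, which ranged from 65.9% to 66.9%. The Wilson intervals of single pools overlapped, with 67.1–85.5% in XO1 and 55.4–75.7% in XY1. Another regulatory subunit, Prkar2b, which encodes RIIβ, was the highest PKA gene outside the members, at 18.7 normalized CPM, beside 17.1 for Prkar2a. With Prkar2b included, a choice made after the values were seen, the genotypes overlapped, and the regulatory share was 76.3% to 82.0% in XX pools, 78.2% to 84.0% in XO pools and 76.9% to 81.7% in XY pools.

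**Figure D4:**
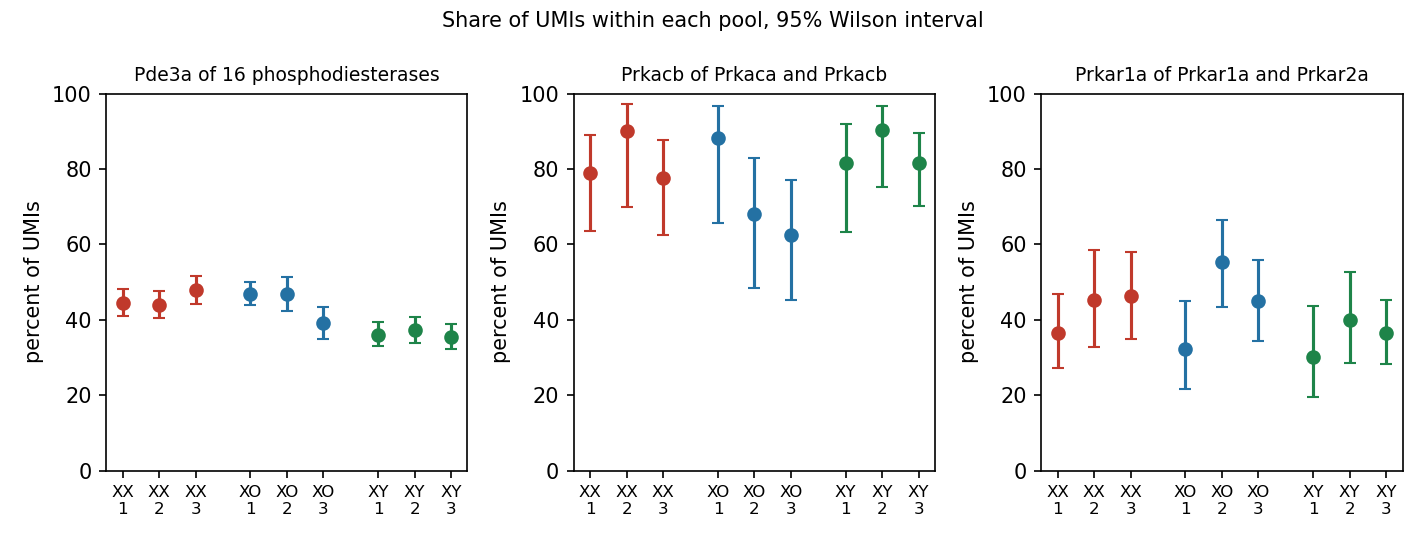
Share of UMIs within each pool for Pde3a among 16 phosphodiesterases, Prkacb among the 2 catalytic genes and Prkar1a among the 2 regulatory genes, with 95% Wilson intervals. Pde3a is 35.4% to 37.2% in XY pools and 39.1% to 47.8% in the others, whereas the shares of the PKA genes overlap between genotypes.

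In all, 6 of the 9 members had enough UMIs for the test, and Gpr3, Adcy3 and Prkaca did not. None of the 6 passed between XX and XO at an unadjusted p of 0.05 in edgeR, or in DESeq2. Among all tested genes, 1.33% were called higher and 16.7% lower in XX there. None passed between XX and XY with either tool, where 1.36% of all genes were called higher and 4.45% lower in XX. Adcy9 alone passed between XY and XO in edgeR and 0 members passed in DESeq2, where edgeR called 1.63% of all genes higher and 8.20% lower in XY. The split of these calls followed the scaling, with 152 higher and 1906 lower between XX and XO by spike-in factors but 637 and 650 by TMM over the genes. For XX against XY it was 155 and 508 against 277 and 303, and for XY against XO 186 and 936 against 581 and 394. The direction by spike-in factors is opposite to that of the paper's limma fit with sva covariates. The paper reports more autosomal genes higher than lower in XY against XO oocytes, and many lower in XO than in XX oocytes. The median log2 difference of the 6 members was −0.54, 0.04 and −0.50 in the same order of comparisons, beside −0.47, −0.20 and −0.30 for all genes. The comparisons with XO share the XO pools.

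**Figure D5:**
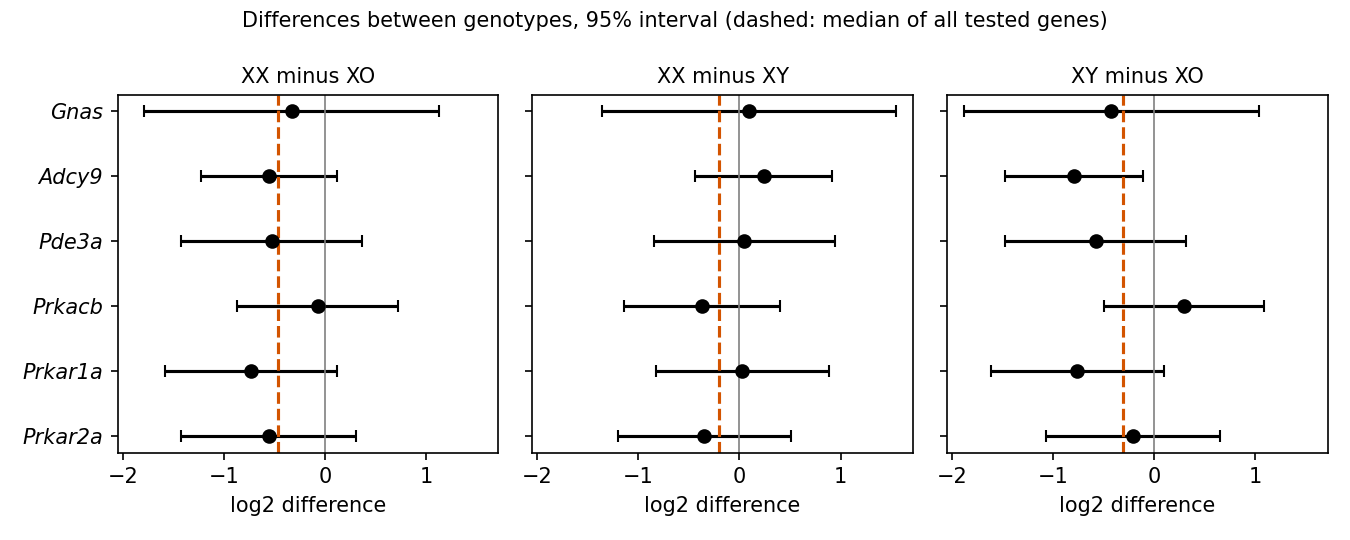
Log2 differences of the 6 tested members between genotypes with 95% intervals from the edgeR fit, with 0 as a grey line and the median of all 11411 tested genes as a dashed line. The interval of Adcy9 in XY minus XO, from −1.47 to −0.11, is the single one that leaves out 0, and it includes the median of −0.30.

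Of 116 other genes listed for the cAMP pathway, 107 had a row and 60 were tested. Between XX and XO, 1 of the 60 was higher and 9 were lower in XX, beside 1.33% and 16.7% of all genes. Against XY, 1 was higher and 4 were lower in XX, beside 1.36% and 4.45% of all genes. The XY oocytes had 1 higher and 4 lower than XO oocytes, beside 1.63% and 8.20% of all genes. None passed after Benjamini-Hochberg adjustment in edgeR. With the replicate number as a block, 1 was higher and 8 were lower in XY than in XO oocytes, beside 2.41% and 14.0% of all genes, against 1.63% and 8.20% without the block. For XX against XY, where the numbers were not taken to pair the pools, the block called 261 of all genes higher and 784 lower in XX. Without XO1 and XY1, 66 were tested, and 26 passed between XX and XO, 15 of XX against XY and 13 when XY was compared with XO. The same fit called 40.2%, 16.4% and 24.7% of all genes.

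Of the 15 differences that passed in genes with a mean of at least 10, 9 also passed with TMM over the genes. With spike-in totals as library sizes 2 still passed, 11 no longer passed and 2 changed sign. Adcy8 was lower in XX than in XO oocytes by a log2 difference of −1.27 ± 0.54 (SE) at an unadjusted p of 0.0398 in edgeR, with means of 207 and 501 normalized CPM, and the sign turned to 0.06 on batch-regressed values. Relative to the median of all tested genes for XX minus XO, −0.47, Adcy8 was at −0.80. Among phosphodiesterases, Pde1a, activated by calcium and calmodulin, was lower in XX than in XO and XY oocytes, at 6.64 against 33.3 and 33.1 normalized CPM. Its XX pools lay between 4.55 and 9.26 and all other pools between 17.6 and 55.9, but how many of all tested genes separate like this was not counted. Pde1b was highest in XY oocytes, above both XX and XO oocytes, at 19.1 against 10.5 and 11.6 normalized CPM. Pde8a, which has high affinity for cAMP, was lower in XX than in XY oocytes, at 7.16 against 14.6. Pde6d was lower in XX and XY than in XO oocytes, at 27.5 and 36.3 against 196 normalized CPM, although XO1 had 19.2.

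Gnb4, a beta subunit of heterotrimeric G proteins, was lower in XX and XY than in XO oocytes, with means of 49.6, 47.7 and 88.2 normalized CPM, but XX and XO differed by 0.08 on the log2 scale with spike-in totals as library sizes. Abcc4, a transporter that exports cyclic nucleotides, was also lower in both, at 9.66 and 10.7 against 21.7. Relative to the median of all tested genes for XX minus XO, −0.47, Gnb4 was at −0.36 and Abcc4 at −0.70. Of 9 anchoring proteins of PKA tested between XX and XO, 7 did not pass. Akap4, which is X-linked, was higher in XX at 18.9 against 7.95. Akap7 was lower at 33.7 against 64.2, although it stood at 0.02 on the log2 scale with spike-in totals and at −0.46 relative to the median of all tested genes. Ppp2r1a, the scaffold subunit of protein phosphatase 2A, was lower in XX than in XO oocytes, at 3.97 against 26.7 normalized CPM, with 2.07 in XO1. Grk5, Cdc25b and Ccnb3 also passed but had means under 10 normalized CPM, and they were picked out here once their values were known. Grk5 was lower in XX than in XO and XY oocytes, at 1.68 against 4.98 and 5.16. Cdc25b was lower in XX and XY than in XO oocytes, at 2.03 and 4.76 against 16.7. Ccnb3, also X-linked, was higher in XX than in XY oocytes, at 8.78 against 3.63. The part of X dosage in Akap4 and Ccnb3 was not tested.

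The highest genes of the other classes did not pass in any comparison. Among them, Rgs2, a regulator of G protein signalling, had 687 normalized CPM and Ccnb1, which encodes cyclin B1, had 2344. Akap12 had 141, Crebbp, a coactivator of CREB, had 113, Prkg1, a kinase activated by cGMP, had 88.0, and Grk4, a receptor kinase, had 19.7 normalized CPM. Ccnb1 ranged from 588 in XO1 to 3789 in XO2, and XY1, at 1084, was the lowest of the XY pools. The lowest XO and XY pools were thus the same as for Gnas.

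Patterns across the 9 pools were compared among the 7276 genes whose mean level reached 10 normalized CPM, by the Pearson correlation of log2(normalized CPM + 1). The genes most like Pde3a were Nlrp4g, an oocyte gene of the Nlrp family (r = 0.996), Ywhaq (0.993) and Taok1 (0.993). For Gpr3 they were Ankrd13c (0.962), Arhgap20os (0.961) and Brdt (0.946), but its values are 0 or 1 UMI times the scale of the pool. The pools share libraries and scaling factors, and these values are a description.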

How the data were processed

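The authors aligned stranded, paired-end Smart-seq3 reads with HISAT2 to GRCm38 and Gencode, kept reads of 5′ exons and deposited UMI counts per gene. They also deposited a signal named normalized CPM, which was checked to be each count over its pool's gene total and a TMM factor that comes from 79 ERCC spike-ins (relative deviation at most 5.0e-15). This factor compares proportions among spike-ins and leaves out RNA per spike-in. Log2 values with batch effects regressed out by the authors served as an alternative alone. The XO column without a number was taken as XO1, and 0 columns were left without a sample.

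Counts of 9 samples were fitted together in edgeR 4.0.16 (filterByExpr, quasi-likelihood test, 1 mean per genotype, spike-in factors, two-sided). The threshold was 0.05 on the unadjusted p, with Benjamini-Hochberg values beside it. The study took the same threshold, but in limma with sva covariates, which this main fit leaves out. SE was derived from the F statistic, and 95% intervals used its degrees of freedom. The fit was tested on simulated data. With 2130145 to 3157338 UMIs per pool, 3 UMIs per genotype were the floor. Alternatives used DESeq2 1.42.0, limma 3.58.1, sva 3.50.0, other scaling, no filter, a replicate block and leaving out pools.

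Whether replicate numbers pair the pools was checked with the correlation of deviations from genotype means. Between equal numbers it was 0.823, 0.267 and 0.764 for XY and XO, which were taken as paired from these values alone. Between unlike numbers it ranged from −0.82 to 0.708 for XY and XO. The highest of these, for XY3 and XO2, is above the 0.267 of XY2 and XO2. The values therefore do not settle whether replicate numbers pair these pools. Between equal numbers it was 0.457, −0.43 and 0.666 for XX with XO and 0.425, −0.06 and 0.711 for XX with XY. These were not taken as paired, since replicate 2 was negative, although replicates 1 and 3 were positive. All members were named, with other listed pathway genes that passed and whose mean reached 10 normalized CPM, the highest gene per class, and the 3 genes most like Gpr3 and Pde3a. The members and lists were chosen with earlier results of these data known. Coordinates are those of the deposited matrices, the same in Gencode vM21, and promoter sequences are from RefSeq (GRCm38.p6), where Pde3a had no entry used here.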

Additional observations from a re-analysis of the deposited data

How the results depend on the processing

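Counts of members called were 0 for XX against XO, 0 for XX against XY and 1 for XY against XO. Those of other pathway genes were 10, 5 and 5, or 13 genes in all. The same fit called 18.0%, 5.81% and 9.83% of all genes. With TMM over the genes XY against XO had 0 members and 3 other genes, and XX against XO 6 other genes. That fit called 8.97% and 11.8% of all genes there. With spike-in totals as library sizes the other genes were 2, 3 and 0, or 3 in all. These totals called 2.99%, 2.52% and 1.17% of all genes, and XY against XO had 0 members. DESeq2 gave 0 members there and called 9.78% of all genes. Without a filter XY against XO had 0 members, and the other genes were 23, 9 and 12, or 27 in all. The fit without a filter covered 107 of them and called 14.1%, 4.33% and 9.75% of all genes. The replicate block gave 9 other genes for XY against XO and moved no other count of members or other pathway genes past 1.5 times. Over all genes the block moved the calls lower in XY than in XO from 936 to 1601, and for XX against XY from 155 to 261 higher and from 508 to 784 lower. With 2 surrogate variables 1, 1 and 3 members and 6, 14 and 10 other genes passed, 22 in all, beside 13.9%, 19.8% and 18.1% of all genes. With limma on batch-regressed values 3 members passed for each comparison with XO, and 29, 14 and 21 other genes, 37 in all. The limma fit called 43.3%, 22.8% and 43.1% of all genes. This limma fit takes the regressed values as untouched and understates their spread. Without XO1 and XY1, chosen after seeing the data, 2, 0 and 0 members and 26, 15 and 13 other genes passed, 32 in all. That fit called 40.2%, 16.4% and 24.7% of all genes. Leaving out 1 pool at a time gave 0 to 1 and 0 to 2 members in the comparisons with XO. Other genes were 6 to 23, 2 to 10 and 0 to 17, or 8 to 27 in all, with the highest counts without XO1. The fit without XO1 called 35.4%, 10.9% and 30.0% of all genes. The causes were not tested.

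Among log2 differences of the 6 tested members, 238 values under an alternative had the direction and side of the threshold of the reported value, 47 changed sign, 12 no longer passed and 9 passed. For XX minus XO, Gnas was 0.19 with TMM, 0.50 with spike-in totals, 0.11 in DESeq2, 0.041 with the replicate block, 0.92 with surrogate variables and 1.54 on batch-regressed values. Prkacb was 0.37 with TMM, 0.84 with spike-in totals, 0.27 in DESeq2, 0.65 with surrogate variables and 0.62 on batch-regressed values. With spike-in totals, Adcy9 was 0.34, Pde3a 0.44, Prkar1a 0.055 and Prkar2a 0.27. Prkar2a was 0.54 with surrogate variables, Adcy9 0.20 and Prkar1a 0.19 on batch-regressed values, and Pde3a 0.063 without XO1 and XY1. For XX minus XY, Prkacb was 0.28 and Prkar2a 0.17 with spike-in totals, Prkar2a 0.13 with surrogate variables, and Gnas −0.25 and Prkar1a −0.18 without XO1 and XY1. For XY minus XO, Prkar2a was 0.063 with TMM, 0.10 with spike-in totals, 0.41 with surrogate variables and 0.19 on batch-regressed values, and Gnas was 0.58 with surrogate variables and 1.24 on batch-regressed values. Leaving out 1 pool at a time gave, in the order of the 3 comparisons, −0.79 to 0.23, −0.19 to 0.48 and −0.83 to 0.14 for Gnas and −0.74 to 0.063, −0.081 to 0.33 and −0.86 to 0.028 for Pde3a. It gave −0.14 to 0.12 for Prkacb in XX minus XO, −0.12 to 0.36 for Prkar1a in XX minus XY and −0.37 to 0.10 for Prkar2a in XY minus XO. The genes most like Gpr3 and Pde3a were the same 3 each with a pseudocount of 0.5. Depth limits Gpr3, Adcy3 and Prkaca, which were not tested. Of the 15 differences of other pathway genes that passed and are named, 173 values under an alternative were called in the same direction, 79 no longer passed and 3 changed sign, which were Gnb4 at 0.080 and Akap7 at 0.018 for XX minus XO with spike-in totals and Adcy8 at 0.055 for XX minus XO on batch-regressed values. With TMM over the genes 9 of the 15 passed, and with spike-in totals 2 did.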
